A study of Mus musculus with 15 samples.

Results

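The genes described here are 10 members of the pathway that carries cytokine signals through JAK kinases and STAT5: the inhibitors Cish, Socs1, Socs2, Socs3, Socs4, Socs5 and Socs6, the kinase Jak2, the transcription factor Stat5a and the STAT5 target Pim1. They were taken as a list of names, chosen with earlier results of these data known. Each was measured through its probe set with a single gene symbol. All 10 were measured among the 14860 genes with such a probe set. Only Socs3 had another probe set, and for it the probe set with the higher mean over all arrays was used.

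RNA of Sca1+ mononuclear spleen cells from transgenic FVB/N mice was hybridized to exon arrays (Affymetrix Mouse Exon 1.0 ST), 1 for each mouse, with 3 mice in each of 5 groups and 15 arrays in all. MRP8NRASD12 mice carry the mutated human NRASD12 under the MRP8 promoter, which drives expression in myeloid cells. TethBCL2 mice carry human BCL2 under a tetracycline-controlled promoter whose activator is driven by the MMTV-LTR, and MRP8hBCL2 mice carry human BCL2 under MRP8. HR-MDS mice, a model of high-risk myelodysplastic syndrome, combine MRP8NRASD12 with tethBCL2 and were taken 80 days after birth. AML post MDS mice, a model of acute myeloid leukemia that follows the syndrome, combine the NRASD12 and BCL2 transgenes both under MRP8 and were taken 36 days after birth. The sources used here give no age for the single transgenic founder mice, and the disease label reads AML for all 15 mice, founders included. Arrays of FVB/N mice without a transgene were not analysed here, so no level is relative to normal cells. Magnetic beads select cells by Sca1 on their surface, which in the spleen lymphocytes carry as well as stem and progenitor cells, and the gene for Sca1, Ly6a, was not analysed here.

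In this pathway a cytokine binds its receptor, JAK kinases on the receptor's tail phosphorylate it and the STAT factors that dock there, and the STATs move to the nucleus. STAT5 then turns on genes for survival and growth in blood cells, and among them are genes of the SOCS family, whose proteins bind the receptor or the JAK and shut the signal off. Transcripts of Cish, Socs1, Socs2, Socs3 and Pim1 are for this reason widely read as a trace of recent cytokine signalling, while Jak2 and Stat5a act mainly through phosphorylation, which arrays do not measure.

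The median log2 level of an array lay between 6.55 and 6.88. The arrays fell into 2 sets: pairs of arrays from the same group correlated with a median r of 0.99 over all genes, pairs from other groups on the same side of the MRP8-driven BCL2 transgene with 0.98, and pairs across it with 0.964. The 6 arrays of MRP8hBCL2 and AML post MDS mice (mouse numbers 3012 to 3626) stand on one side and the 9 other arrays (7465 to 8398) on the other. The transgene and whatever else goes with these mouse numbers cannot be told apart. The mouse Bcl2 probe set also differed this way, at 10.27 to 10.78 on the 6 arrays and 9.68 to 10.20 on the other 9, tethBCL2 and HR-MDS included, and mouse Nras read 9.34 to 10.08 in all. The transgenes are human genes, so these probe sets check the labels only in part. MRP8NRASD12 mouse 8157 had the lowest mean correlation with its own group (0.976), and HR-MDS mouse 8398 had a median neutrophil marker level of 7.99, against 10.81 and 11.16 in the other HR-MDS mice.

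Cish was the only member that differed between a double transgenic and its own BCL2 founder. It encodes the first cytokine-induced inhibitor of the family, which binds activated receptors where STAT5 would dock. Its log2 level was 9.20, 8.76 and 8.60 in the AML post MDS mice 3622, 3626 and 3518, and 7.99, 8.03 and 8.37 in the MRP8hBCL2 mice 3012, 3386 and 3391. Every AML post MDS array lay above every other array of the series. In the MRP8NRASD12 mice 8157, 8158 and 8159 it was 7.93, 7.90 and 7.80, in the tethBCL2 mice 7758, 7465 and 7466 it was 7.90, 7.34 and 7.83, and in the HR-MDS mice 8111, 8019 and 8398 it was 8.01, 8.05 and 7.99.

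Compared with their BCL2 founder, AML post MDS mice had a higher Cish level by 0.72 ± 0.17 (log2 difference ± SE, n = 3 and 3; 1.65-fold), with a 95% interval from 0.36 to 1.09 and an adjusted p of 0.0467 (limma, Benjamini-Hochberg over all genes). Cish was the only one of the 10 members to pass an adjusted p of 0.05 in this comparison, where 1.93% of all genes passed, 1.29% with a higher and 0.646% with a lower level in AML post MDS. Its p lies just under the threshold: the call held in 9 of 25 alternative analyses, in which the difference ran from 0.55 to 0.85 and the adjusted p from 0.0148 to 0.482. Among analyses without a single array it held only when MRP8NRASD12 8157, tethBCL2 7465 or MRP8hBCL2 3391 was the array left out, and without any of the other 12 arrays it did not. Cish was also higher in AML post MDS than in the NRASD12 founder, by 0.98 ± 0.17 (adjusted p = 0.00095), and than in HR-MDS, by 0.84 ± 0.17 (adjusted p = 0.00257), and both calls held in 24 of 25 alternatives, all but the methods' t-test with the Benjamini-Hochberg adjustment. The means in the other groups ran upward from tethBCL2 (7.69 ± 0.31, SD) through MRP8NRASD12 (7.87 ± 0.07) and HR-MDS (8.02 ± 0.03) to MRP8hBCL2 (8.13 ± 0.21). No test between tethBCL2, MRP8NRASD12 and HR-MDS passed, and HR-MDS and MRP8hBCL2 overlapped.

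**Figure D1:**
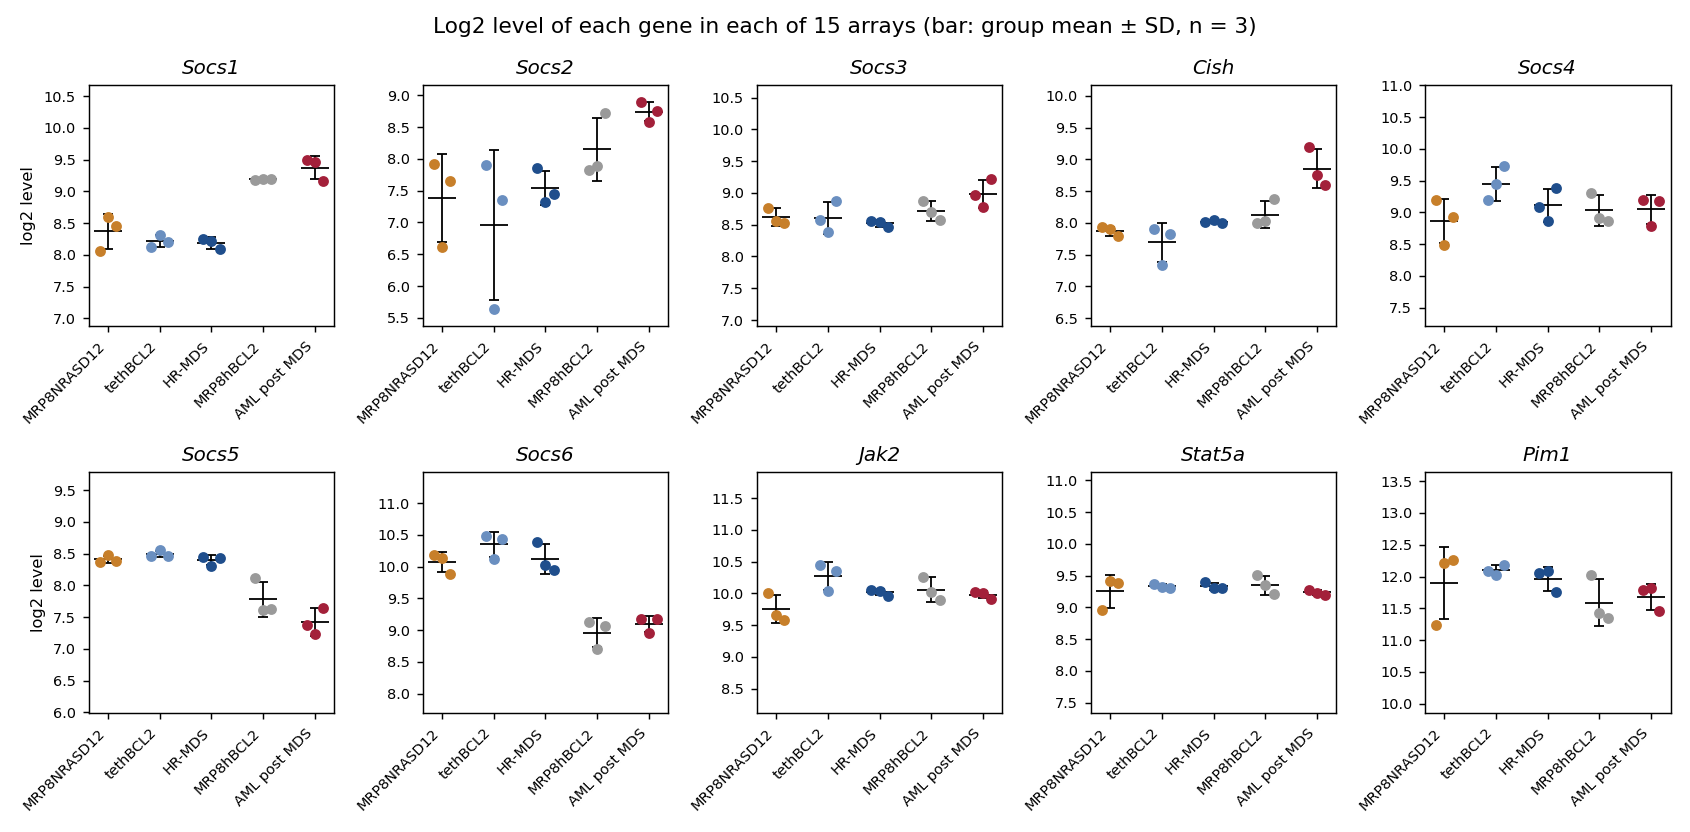
Log2 level (vertical axis, every panel with an equal span) of the 10 genes in the 15 arrays, by group. Each point is 1 mouse, and the bar with its whiskers is the mean and SD of 3 mice. Cish is highest in the 3 AML post MDS arrays (8.60 to 9.20), and Socs1, Socs5 and Socs6 separate the MRP8hBCL2 and AML post MDS arrays from all others.

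These are whole-sample levels, so more cells of a type and more RNA per cell cannot be told apart. Beside the rise of Cish, the list of mast cell and basophil markers also separated the groups: its median log2 level was 6.97 to 7.60 in the AML post MDS arrays and 5.31 to 6.02 in the MRP8hBCL2 arrays, and 2 of its 6 measured genes passed, both higher. The median of 12 neutrophil markers was 9.34 to 10.77 against 8.35 to 9.07, with 2 genes that passed, both higher. That of 10 monocyte and macrophage markers was 9.39 to 9.56 against 7.88 to 9.21, with no gene that passed. For 5 primary granule markers it was 10.66 to 11.65 against 9.16 to 10.81, also with none. Lymphoid lists lay the other way: the median of 7 T cell markers was 10.29 to 10.64 against 10.90 to 10.94 and that of 8 B cell markers 10.86 to 11.21 against 11.37 to 11.61, although no gene of either list passed. Of 4 dendritic cell markers 2 passed, both lower in AML post MDS, and of 6 NK and cytotoxic markers 2 passed, 1 higher and 1 lower. The part of these cells in the Cish result was not tested.

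The sequence in front of Cish is shown because STAT5 binds the motif TTCNNNGAA, whose 2 ends mirror each other so that it reads alike on both strands. In the RefSeq promoter windows of GRCm38.p6, from 250 bases before to 50 after a gene's start, 8.3% of 32851 windows held this motif and 0.457% held it more than once. For the windows of the genes tested the shares were 7.28% and 0.368%. Windows were given for 7 of the 10 members. Cish had 2 matches, side by side from base 1 to 9 and 12 to 20 after the start, and Socs3 had 1, from base -154 to -146 before it. The motif was not found in the windows of Socs1, Socs4, Jak2, Pim1 or Stat5a. Both stretches are printed 5′ to 3′ along the gene with the motif in capitals. That of Cish is chr9:107296559-107296678 on the + strand and ends 20 bases into the transcript, and that of Socs3 is chr11:117969447-117969566 on the - strand.
Cish: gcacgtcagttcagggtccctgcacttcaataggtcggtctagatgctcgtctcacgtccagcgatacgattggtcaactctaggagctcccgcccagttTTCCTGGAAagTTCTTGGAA
Socs3: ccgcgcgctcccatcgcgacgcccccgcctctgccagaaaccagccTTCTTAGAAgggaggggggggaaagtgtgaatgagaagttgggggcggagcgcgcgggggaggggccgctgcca
A match is a run of letters and not a measured binding site.

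Socs3, the inhibitor of gp130 and G-CSF receptor signalling that also blocks JAK2 itself, was measured at 8.97, 8.78 and 9.22 in AML post MDS. It was at 8.88, 8.70 and 8.57 in MRP8hBCL2, 8.56, 8.55 and 8.46 in HR-MDS, 8.57, 8.38 and 8.87 in tethBCL2 and 8.77, 8.56 and 8.52 in MRP8NRASD12. The AML post MDS arrays lay above those of HR-MDS and MRP8NRASD12 but overlapped with tethBCL2 and MRP8hBCL2. AML post MDS exceeded HR-MDS by 0.46 ± 0.14 (adjusted p = 0.0286), a difference of 1.38-fold. The call was lost in 9 of 25 alternatives, among them each of the 3 analyses without an HR-MDS array and those without AML post MDS 3622 or 3518. The other Socs3 probe set ran the opposite way, at 6.46 ± 0.57 in AML post MDS and 6.58 ± 0.26 in HR-MDS (SD), and with the mean of both probe sets the difference was 0.17. Against MRP8hBCL2 the difference was 0.27, with an interval from -0.03 to 0.58.

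Socs2, which dampens growth hormone signalling and is a STAT5 target in many tissues, had the widest spread. Its level was 8.89, 8.58 and 8.75 in AML post MDS, 7.83, 7.89 and 8.72 in MRP8hBCL2 and 7.85, 7.33 and 7.45 in HR-MDS. In tethBCL2 mice it was 7.90, 5.64 and 7.35, and in MRP8NRASD12 mice 7.92, 6.62 and 7.65, so that tethBCL2 7465 and MRP8NRASD12 8158 each stood well below the other mice of their group. AML post MDS arrays all exceeded those of HR-MDS, MRP8NRASD12 and tethBCL2, yet no Socs2 test passed: the difference from HR-MDS was 1.2 ± 0.47 (adjusted p = 0.0865) and that from MRP8NRASD12 was 1.34 ± 0.47 (adjusted p = 0.0578). From MRP8hBCL2 it was 0.59, with an interval from -0.43 to 1.61.

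Socs1, the strongest JAK inhibitor of the family and a brake on interferon-gamma signalling, followed the MRP8-driven BCL2 transgene. It was at 9.49, 9.46 and 9.17 in AML post MDS and 9.18, 9.19 and 9.20 in MRP8hBCL2. It was at 8.25, 8.22 and 8.09 in HR-MDS, 8.13, 8.32 and 8.21 in tethBCL2 and 8.06, 8.60 and 8.46 in MRP8NRASD12. The lowest of the 6 arrays exceeded the highest of the 9 by 0.57. MRP8hBCL2 was higher than tethBCL2 by 0.97 ± 0.13 (1.96-fold, adjusted p = 0.000155) and AML post MDS was higher than HR-MDS by 1.19 ± 0.13 (2.27-fold, adjusted p = 3.1e-05). Within each set of arrays no Socs1 test passed, and AML post MDS differed from MRP8hBCL2 by 0.18, with an interval from -0.10 to 0.47.

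Socs5 and Socs6 took the reverse course. Socs5, which in cells restrains the EGF receptor and interleukin-4 signalling, read 7.37, 7.23 and 7.65 in AML post MDS and 8.11, 7.62 and 7.63 in MRP8hBCL2. It read 8.45, 8.31 and 8.43 in HR-MDS, 8.46, 8.55 and 8.47 in tethBCL2 and 8.37, 8.48 and 8.39 in MRP8NRASD12. All 6 arrays with the MRP8-driven BCL2 lay below all 9 others, with a gap of 0.20. AML post MDS was lower than HR-MDS (-0.98 ± 0.13, 0.506 times, adjusted p = 0.000162), and MRP8hBCL2 was lower than tethBCL2 (-0.71 ± 0.13, 0.612 times, adjusted p = 0.00185). AML post MDS stood at -0.37 ± 0.13 relative to MRP8hBCL2, with an interval from -0.66 to -0.08, which did not pass over all genes (adjusted p = 0.184).

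Socs6, which binds the KIT receptor, showed the largest difference in size among the members that passed in any comparison. It was at 9.18, 8.96 and 9.18 in AML post MDS and 9.13, 8.70 and 9.06 in MRP8hBCL2. It was at 10.39, 10.03 and 9.94 in HR-MDS, 10.49, 10.12 and 10.43 in tethBCL2 and 10.19, 10.13 and 9.89 in MRP8NRASD12. The 2 sets of arrays were 0.71 apart. MRP8hBCL2 was below tethBCL2 by a log2 difference of -1.38 ± 0.15 (0.384 times, adjusted p = 3.54e-05) and AML post MDS was below HR-MDS by -1.02 ± 0.15 (0.494 times, adjusted p = 0.000336). AML post MDS and MRP8hBCL2 overlapped, with a difference of 0.14 and an interval from -0.19 to 0.47.

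**Figure D2:**
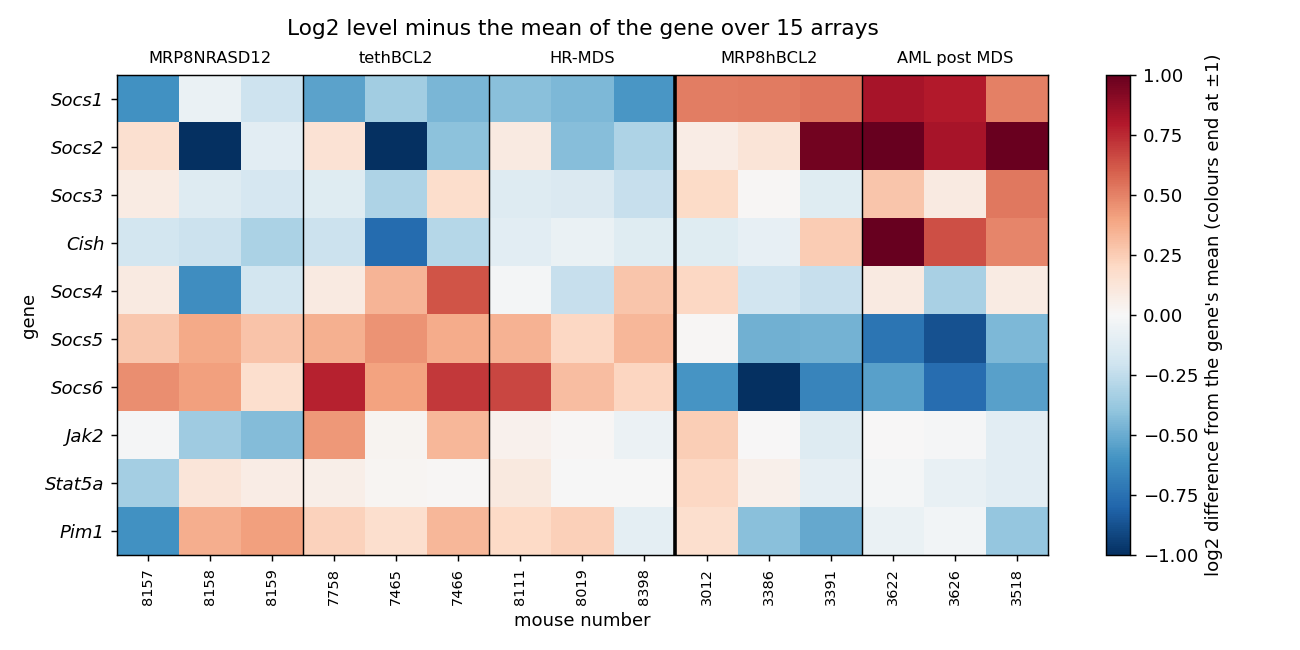
Log2 level of the 10 genes minus each gene's mean over 15 arrays, with 1 column per mouse in the order of the groups and the heavy line between the 9 arrays without and the 6 with the MRP8-driven BCL2 transgene. Red is above and blue below the gene's mean, and colours end at 1 log2 unit from it. To the right of the heavy line Socs1 is red and Socs6 blue in all 6 columns, Socs5 is blue in all but that of mouse 3012, where it is near its mean, and Cish is reddest in the 3 AML post MDS columns.

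These 3 genes were the members whose 6 arrays with and 9 arrays without the MRP8-driven BCL2 did not overlap, 3 of 10 members where 13.2% of all genes did so. The median T cell marker also differed along this line: the median of 7 measured markers was 10.29 to 10.94 on the 6 arrays and 9.29 to 9.99 on the 9. Between MRP8hBCL2 and tethBCL2, 4 of the 7 passed, all higher in MRP8hBCL2, beside 22.6% of all genes. Between AML post MDS and HR-MDS 6 passed, beside 24.2% of all genes. Of them 4 were higher and 2 lower in AML post MDS, so that the list did not move as a whole. Between MRP8hBCL2 and tethBCL2 3 of 6 NK and cytotoxic markers passed, also all higher (median of the list 6.84 to 7.65 on the 6 arrays, 6.09 to 6.96 on the 9). The median of 5 primary granule markers overlapped (9.16 to 11.65 on the 6 arrays, 6.07 to 11.41 on the 9). Yet all 5 passed in both comparisons, all higher. Of 12 neutrophil markers 9 passed between MRP8hBCL2 and tethBCL2 and 1 between AML post MDS and HR-MDS, all higher. Between MRP8hBCL2 and MRP8NRASD12 no primary granule marker passed, and 8 neutrophil markers did, all lower. The part of all these cells in the levels of Socs1, Socs5 and Socs6 was not tested.

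Socs4 did not pass in any comparison. This relative of Socs5 read 9.19, 8.48 and 8.92 in MRP8NRASD12, 9.19, 9.44 and 9.73 in tethBCL2 and 9.08, 8.87 and 9.38 in HR-MDS. It read 9.31, 8.91 and 8.87 in MRP8hBCL2 and 9.19, 8.78 and 9.18 in AML post MDS. Its largest difference was between tethBCL2 and MRP8NRASD12, at 0.59 ± 0.21 with an adjusted p of 0.0978.

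Jak2, the kinase of the erythropoietin, thrombopoietin, interleukin-3 and GM-CSF receptors, was at 10.45, 10.04 and 10.35 in tethBCL2 and 10.00, 9.66 and 9.58 in MRP8NRASD12. These founders did not overlap, and tethBCL2 was higher by 0.53 ± 0.14 (1.44-fold, adjusted p = 0.0275). The call held in 19 of 25 alternatives and was lost without MRP8NRASD12 8158 or 8159 and without tethBCL2 7758 or 7466. Beside it, the median of 12 neutrophil markers was 5.18 to 6.09 in tethBCL2 and 11.16 to 12.23 in MRP8NRASD12, and its part in the Jak2 result was not tested. HR-MDS, which carries both transgenes, read 10.06, 10.03 and 9.96, between the founders' means of 10.28 and 9.75, and neither difference passed. MRP8hBCL2 read 10.26, 10.02 and 9.89 and AML post MDS 10.02, 10.00 and 9.91, and AML post MDS overlapped with its BCL2 founder.

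Stat5a, 1 of the 2 STAT5 factors, had the narrowest range of the members (0.55 over all arrays). It was at 8.96, 9.42 and 9.38 in MRP8NRASD12, 9.36, 9.32 and 9.31 in tethBCL2 and 9.40, 9.30 and 9.30 in HR-MDS. It was at 9.51, 9.35 and 9.21 in MRP8hBCL2 and 9.28, 9.23 and 9.20 in AML post MDS. None of the 8 comparisons passed. The difference farthest from 0 was that between AML post MDS and MRP8hBCL2, at -0.12, and the intervals of all 8 lay between -0.37 and 0.36.

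Pim1, a serine/threonine kinase that promotes survival and a STAT5 target, was at 11.24, 12.21 and 12.26 in MRP8NRASD12, where mouse 8157 stood far below the others. It was at 12.08, 12.02 and 12.18 in tethBCL2, 12.05, 12.09 and 11.75 in HR-MDS, 12.02, 11.43 and 11.34 in MRP8hBCL2 and 11.78, 11.82 and 11.46 in AML post MDS. Every MRP8hBCL2 array lay below every tethBCL2 array, but the difference of -0.50 ± 0.24 did not pass (adjusted p = 0.173). Pim1 did not move with Cish: in AML post MDS it differed from MRP8hBCL2 by 0.09, with an interval from -0.43 to 0.61.

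Over all members, the comparison of each double transgenic with its BCL2 founder called few. None of the 10 passed between HR-MDS and tethBCL2, where 0.451% of all genes passed, and none had an unadjusted p under 0.05 in limma or in the methods' t-test. None passed between HR-MDS and MRP8NRASD12, where 0.0135% of genes did. In the latter no member had an unadjusted p under 0.05 in limma, and Cish alone did in the methods' t-test. The median difference of the 10 was -0.09 from tethBCL2, against 0.04 over all genes, and 0.07 from MRP8NRASD12, against 0. In Cish the HR-MDS arrays were all above those of both founders, by 0.33 (interval -0.03 to 0.69) and 0.14 (interval -0.22 to 0.51). The change of Cish from the BCL2 founder was larger in AML post MDS than in HR-MDS by 0.39 ± 0.24, and this contrast did not pass for Cish or any other member (adjusted p = 1 for each). Of all genes 0% passed it. An unadjusted p under 0.05 was reached by 684 of 14860 genes, a share below that threshold, and none of them was a member.

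**Figure D3:**
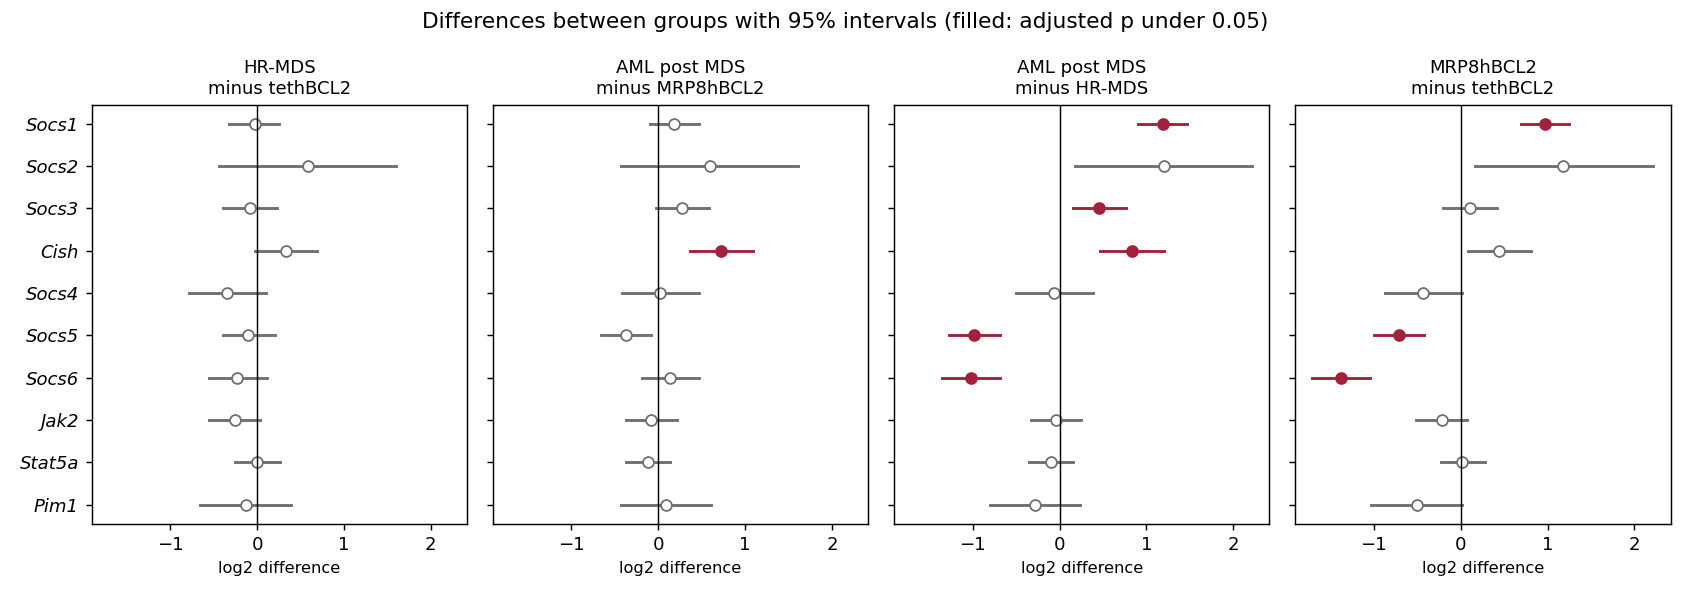
Log2 difference (horizontal axis) of the 10 genes in 4 comparisons, each the first group minus the second, with the 95% interval from limma (n = 3 and 3). Filled points passed an adjusted p of 0.05: none for HR-MDS minus tethBCL2, Cish for AML post MDS minus MRP8hBCL2, 5 genes for AML post MDS minus HR-MDS and 3 for MRP8hBCL2 minus tethBCL2.

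The comparisons that cross the MRP8-driven BCL2 transgene called more members, as they did of all genes. Between AML post MDS and HR-MDS 5 of 10 passed, with Socs1, Socs3 and Cish higher and Socs5 and Socs6 lower in AML post MDS, where 24.2% of all genes passed, 14.3% higher and 9.9% lower. Between AML post MDS and MRP8NRASD12 4 passed, Socs1 and Cish higher and Socs5 and Socs6 lower, of 22.4% of all genes (13.6% higher, 8.74% lower). Without MRP8NRASD12 8157 it was 7, with Socs2, Socs3 and Pim1 added. Socs1 was higher and Socs5 and Socs6 lower in MRP8hBCL2 than in tethBCL2, as 3 members of 10 beside 22.6% of genes (13.5% higher, 9.12% lower). The same 3 members passed in these directions between MRP8hBCL2 and MRP8NRASD12, beside 22.1% of genes (12.2% higher, 9.93% lower), and 5 passed without MRP8NRASD12 8157. These comparisons share arrays with each other, and AML post MDS and HR-MDS mice also differ in age (36 and 80 days), which cannot be told apart from their genotype. The only member that passed between tethBCL2 and MRP8NRASD12 was Jak2, beside 8.83% of genes (2.85% higher, 5.98% lower). In a single test for any difference among the 5 groups, Socs1 (adjusted p = 1.77e-05), Socs6 (2.56e-05), Socs5 (9.13e-05) and Cish (0.000955) passed, 4 of 10 members beside 34.3% of all genes, and Socs2 (0.0547) and Jak2 (0.0686) came next.

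The rest of the pathway was read from lists of 100 further genes, of which 86 were measured. Between HR-MDS and tethBCL2 only Csf3r passed, the receptor for G-CSF on neutrophils and their precursors, which rose from 6.08 ± 0.55 to 8.24 ± 0.70 (log2 difference 2.17 ± 0.43, adjusted p = 0.0432). Beside it, 11 of 12 neutrophil markers passed, all higher. The median of that list was 7.99 to 11.16 in HR-MDS and 5.18 to 6.09 in tethBCL2, and its part in the Csf3r result was not tested. In MRP8NRASD12, the other founder, Csf3r was at 9.52 ± 0.47, and every HR-MDS array lay below every array of that founder. This difference of -1.27 ± 0.43 did not pass (adjusted p = 0.79). Between AML post MDS and MRP8hBCL2 2 of 86 passed, a share near the 1.93% of all genes. Csf2rb, the shared beta chain of the GM-CSF, interleukin-3 and interleukin-5 receptors, rose from 8.94 ± 0.71 to 10.22 ± 0.04 (1.28 ± 0.29, adjusted p = 0.0386). Il10, the gene of an inhibitory cytokine, rose from 6.45 ± 0.21 to 7.58 ± 0.22 (1.13 ± 0.26, adjusted p = 0.0391). In this comparison the mast cell, basophil and neutrophil markers that were higher in AML post MDS moved with Csf2rb as with Cish. Their part was not tested. Against MRP8NRASD12, where Cish was also higher in AML post MDS, the neutrophil list ran the other way. Its median was 9.34 to 10.77 in AML post MDS and 11.16 to 12.23 in MRP8NRASD12. Of its 12 genes 2 passed, both lower in AML post MDS. The mast cell and basophil list was higher in AML post MDS, with a median of 6.97 to 7.60 against 5.48 to 6.27 in MRP8NRASD12. Of its 6 genes 3 passed, all higher, beside 22.4% of all genes. Against HR-MDS, where that median was 4.68 to 6.01, 3 also passed, all higher, beside 24.2% of all genes. The part of these cells in the Cish result was not tested.

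**Figure D4:**
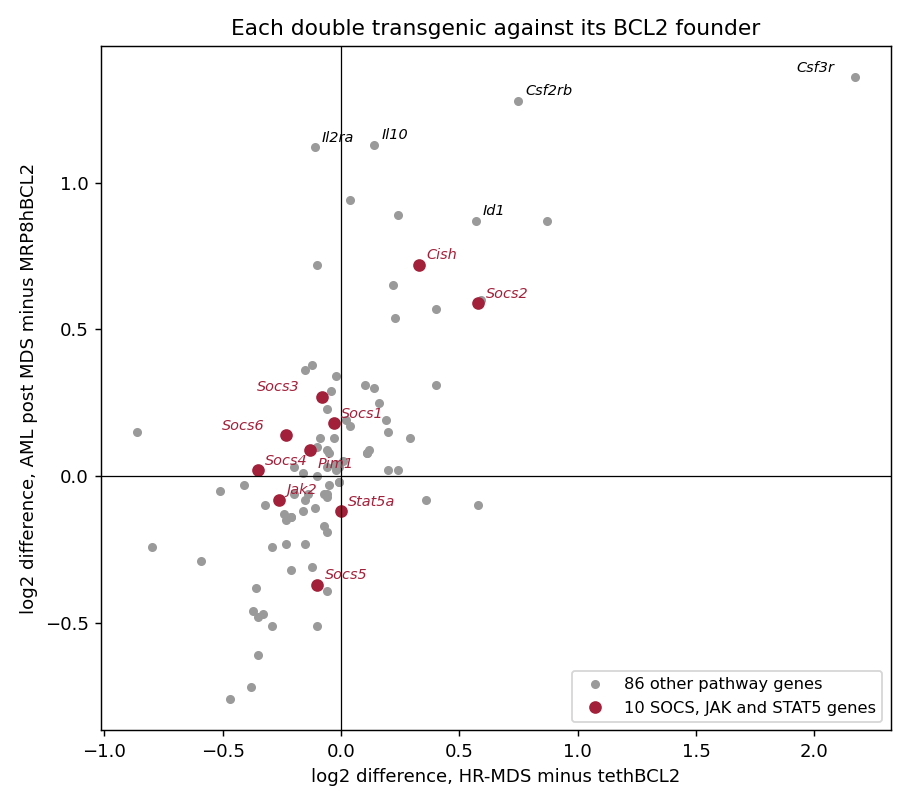
Log2 difference of HR-MDS from tethBCL2 (horizontal axis) against that of AML post MDS from MRP8hBCL2 (vertical axis), for the 10 genes in red and the 86 other measured genes of the pathway in grey. The axes share no arrays. Csf3r lies farthest right at 2.17, and Csf2rb (1.28), Il10 (1.13) and Cish (0.72) are the genes that passed on the vertical axis.

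Among the 12 other measured STAT5 targets none passed in either of these comparisons. The nearest were Id1, an inhibitor of differentiation factors, at 0.87 ± 0.22 in AML post MDS over MRP8hBCL2 (adjusted p = 0.0551), and Il2ra, the alpha chain of the interleukin-2 receptor, at 1.12 ± 0.31 (adjusted p = 0.0808). Between AML post MDS and HR-MDS 4 of the 12 passed, beside 24.2% of all genes. Il2ra (2.88 ± 0.31), the cyclin gene Ccnd3 (1.51 ± 0.14) and the kinase gene Pim2 (0.40 ± 0.12) were higher and the survival gene Mcl1 was lower (-0.53 ± 0.09). Il2ra, Ccnd3 and Pim2 were likewise higher and Mcl1 lower in MRP8hBCL2 than in tethBCL2, by 1.66, 1.51, 0.62 and -0.48. The targets thus moved in both directions, and their median difference between AML post MDS and HR-MDS was 0.06, against 0 over all genes.

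Of the partners of Jak2 and Stat5a, Jak1 was lower in AML post MDS than in HR-MDS (-0.40 ± 0.09, adjusted p = 0.00387) and Tyk2 was higher (0.56 ± 0.12, adjusted p = 0.0044). Stat5b, the other STAT5 factor, was at 9.33 ± 0.17 in AML post MDS and 9.66 ± 0.08 in HR-MDS (-0.34 ± 0.10, adjusted p = 0.0312). Relative to MRP8hBCL2 it stood at -0.39 ± 0.10, which did not pass (adjusted p = 0.0742). Socs7, the last gene of the family, did not pass in any of these comparisons, with group means from 8.26 to 8.40. Of 11 measured phosphatases, adaptors and PIAS proteins that restrain the pathway, 5 passed between AML post MDS and HR-MDS, 2 higher and 3 lower. The adaptor gene Sh2b3, which holds back JAK2 downstream of the thrombopoietin receptor, was among the higher (1.23 ± 0.09, adjusted p = 1.62e-06), and Ptpn6, the gene of the phosphatase SHP-1, among the lower (-0.56 ± 0.13, adjusted p = 0.00672). Of 6 genes listed as possible ubiquitin ligase partners of SOCS proteins 2 passed, and Cul5 and Rnf7 were not among them. Rbx1 was lower (-1.32 ± 0.30, adjusted p = 0.00489). Elob passed in the other direction, with a log2 level of 5.88 ± 0.49 in AML post MDS and 3.82 ± 0.37 in HR-MDS (adjusted p = 0.0148). No detection call was used, so the level in HR-MDS was not shown to be above background. Over all 86 genes, 29 passed in this comparison, 18 higher and 11 lower, beside the 24.2% of all genes given above. Tyk2 (0.47), Sh2b3 (1.16), Ptpn6 (-0.56) and Rbx1 (-1.32) also passed between MRP8hBCL2 and tethBCL2, in the same directions. Jak1 (-0.22) and Stat5b (-0.01) did not pass there. Elob did not pass either, at 5.93 ± 0.63 in MRP8hBCL2 and 4.33 ± 1.37 in tethBCL2 (SD). None of these genes passed between AML post MDS and MRP8hBCL2.

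The genes whose levels were most like those of a member were found by Pearson's r over the 15 arrays, as a description in which the 2 sets of arrays enter every value. Closest to Cish were Shmt2 (r = 0.953), Zdhhc2 (0.949) and Cnih1 (0.948). Closest to Socs1 were Lsm12 (0.981), E130309D02Rik (0.978) and Med25 (0.971), to Socs5 Pbxip1, E4f1 and Mppe1 (0.964 to 0.965) and to Socs6 Pank3, Atl3 and Clp1 (0.970 to 0.978). Pim1 was most like Sqstm1 (0.956), Ets2 (0.955) and Ddit3 (0.944), Stat5a most like Cystm1 (0.912) and Jak2 most like Gpbp1 (0.898). The lowest first match was that of Socs3, with Sdhb (0.846). Socs2 was most like Ostm1 (0.890) and Socs4 most like Sp1 (0.872). No member was among the 3 closest genes of another.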

How the data were processed

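Total RNA of Sca1+ spleen mononuclear cells was hybridized to exon arrays, 1 per mouse. For every probe set of an array the authors deposited a log2 value from EASANA with FAST DB annotations. Per the labels the genome build was mm9. The sources used here name neither the summary over probes nor the scaling between arrays. The number of arrays limits the precision.

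Of 23332 probe sets, 14996 carry 1 gene symbol, 1019 several and 7317 none. Symbols were updated by Entrez number through RefSeq (GRCm38.p6; 14941 matched). For 135 genes with several probe sets the one with the highest mean was kept, which left 14860 genes, all tested as deposited without a filter. The 10 members and all gene lists were chosen with earlier results of these data known. Beside the members, the rule named from each list up to 4 passing genes, by size of the difference, or up to 2 by smallest p if no gene of the list passed, and the 3 genes most like each member.

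Groups came from the sample titles, with mice as numbered there. A mean per group was fitted over 15 arrays with limma 3.58.1 (R 4.3.3), with moderated variances, 8 two-sided comparisons, a moderated F test over the 5 groups and the contrast of the changes from both BCL2 founders. A gene passed at a Benjamini-Hochberg adjusted p under 0.05 over all genes. The authors' methods call their comparisons unpaired but their Student test paired. The name "methods' t-test" stands for the unpaired version. Alternatives were quantile normalization, subtraction of array medians, a filter that removed the lowest 0.25 of genes by mean, a fit to the compared arrays alone, trended robust eBayes, array weights, averaged probe sets, all probe sets, the methods' t-test, and leaving out arrays. Promoter windows came from RefSeq. Figures were drawn with matplotlib in Python.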

Additional observations from a re-analysis of the deposited data

How the results depend on the processing

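The count of members that passed stayed at 0 between HR-MDS and each founder and in the contrast of the changes from the BCL2 founders under every alternative that gave a value, and within 1.5 times of 5 between AML post MDS and HR-MDS. Between AML post MDS and MRP8hBCL2 the 1 member fell to 0 in a fit to the compared arrays alone, with trended robust eBayes, all probe sets or the methods' t-test, and ranged from 0 to 1 over the analyses without a single array. Between tethBCL2 and MRP8NRASD12 the 1 member became 3 with array medians subtracted or array weights, 2 without both MRP8NRASD12 8157 and HR-MDS 8398, and 0 with only the arrays compared or the methods' t-test, with 0 to 2 over the analyses without a single array. With array weights the counts were 7 for AML post MDS against MRP8NRASD12, 6 for MRP8hBCL2 against tethBCL2, 5 for MRP8hBCL2 against MRP8NRASD12 and 9 for the test over the 5 groups. With the methods' t-test they were 0 for AML post MDS against MRP8NRASD12 and 0 for MRP8hBCL2 against MRP8NRASD12, and at the methods' own threshold of an unadjusted p of 0.05 it called 5 and 3. Without both MRP8NRASD12 8157 and HR-MDS 8398 the latter count was 5. Over the analyses without a single array the counts ranged from 4 to 7 for AML post MDS against MRP8NRASD12, from 3 to 5 for MRP8hBCL2 against MRP8NRASD12 and from 4 to 7 for the test over the 5 groups. The cause was not tested. Over 10 members, 8 comparisons and 25 alternatives, 1922 of 2000 values kept their side of the threshold, 41 lost a call and 37 gained one, and 0 changed direction beyond their standard error. No paired analysis was run because the labels give no pairing of mice across groups. The values are log2 levels with no detection call used here, so a level near background could not be told from none.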
